A study of Mus musculus with 14 samples.

Results

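The Slc25 family encodes the mitochondrial carriers, the membrane proteins that move nucleotides, phosphate, carboxylic acids, amino acids, cofactors and iron between the cytosol and the mitochondrial matrix. The array held probes for 45 mouse genes whose symbol starts with Slc25a, and 39 of them passed the filter, which asked for a probe that the scanner software called well above background on 3 or more of the 14 arrays. Each gene was represented by the passing probe with the highest mean signal. The genes Slc25a18, Slc25a21, Slc25a31, Slc25a41, Slc25a48 and Slc25a54 did not pass. Over the whole array, 15536 of 19092 genes passed in the same way. Of the 39 carriers, 35 were well above background on all 14 arrays.

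RNA came from whole colon of female C57BL/6 mice aged 4 to 6 months on a chow diet. Mice carrying GR fl/fl alleles without Cre (Flox) were the controls for mice in which Villin-cre, active in the epithelium of the intestine from before birth, deletes the glucocorticoid receptor gene Nr3c1 (GR iKO). Both genotypes therefore carried the floxed alleles, and cells of the colon other than the epithelium keep the receptor in both. Mice drank regular water or 2.5% dextran sodium sulfate (DSS), a polymer that injures the colon epithelium, for 7 days. There were 4 Flox control, 3 Flox DSS, 4 GR iKO control and 3 GR iKO DSS arrays. Levels are given as log2 of the processed spot intensity minus the array's own 75th percentile, so a level of 0 is the intensity at that percentile and a difference of 1 is a doubling. Levels of different genes were read by different probes and were not compared with each other.

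Signal depth was lower on DSS arrays: the 75th percentile lay between 707 and 1004 intensity units on the 8 water arrays, between 262 and 676 on the Flox DSS arrays and between 496 and 716 on the GR iKO DSS arrays. Spike-in probes stood 1.59 to 2.19 above that percentile on the log2 scale on water, 3.46 to 4.74 on Flox DSS and 2.30 to 3.47 on GR iKO DSS arrays. From 62.6% to 71.3% of probes were well above background. DSS arrays of a group differed more among themselves than water arrays did, with a residual variance 3.43 times as large in the fit, and the test weighted the arrays for this. The Nr3c1 probe with the highest signal was at 57.3% of the Flox level in GR iKO colons on water (log2 level 0.39 ± 0.16 against 1.19 ± 0.14, SD, n = 4 each, exact two-sided permutation p = 0.0286). On DSS it was at 55.9% (0.43 ± 0.06 against 1.27 ± 0.20, SD, n = 3 each, exact p = 0.1, the smallest that 3 against 3 arrays can give). Epithelial markers were measured on every array, with 7 of 7 general and 6 of 7 colonocyte markers passing the filter. In whole tissue, fewer cells of a type and less RNA per cell cannot be told apart, and DSS changed the markers of several cell types beside the carriers.

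Carriers of this family are built from a shared fold of repeated helix pairs, are made in the cytosol and reach the inner membrane through the import channels of the mitochondrion. They connect the respiratory chain with the cell: the ADP/ATP and phosphate carriers feed ATP synthase, the aspartate/glutamate and oxoglutarate carriers form the malate-aspartate shuttle that brings in reducing equivalents, and others bring in cofactors for matrix enzymes. Colonocytes depend on mitochondrial oxidation of fatty acids made by gut bacteria.

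Promoter sequences are shown for 5 carriers, in the orientation of the gene, 250 bases before to 50 after its start, from RefSeq on GRCm38.p6. Slc25a4 and Slc25a5 are shown because these isoforms of the ADP/ATP carrier moved in opposite directions on DSS, Slc25a22 and Slc25a36 because they are a strong rise and a strong fall, and Slc25a17 because it is a carrier whose promoter window holds the hexamer bound by the glucocorticoid receptor. Capitals mark, on either strand, GGGCGG (the GC box of Sp1-type factors), AGAACA (the hexamer that makes up a glucocorticoid receptor element) and AAGGTCA (the element of the oestrogen-related receptors, which act on many mitochondrial genes).
Slc25a4 (chr8:46211013-46211312, minus strand): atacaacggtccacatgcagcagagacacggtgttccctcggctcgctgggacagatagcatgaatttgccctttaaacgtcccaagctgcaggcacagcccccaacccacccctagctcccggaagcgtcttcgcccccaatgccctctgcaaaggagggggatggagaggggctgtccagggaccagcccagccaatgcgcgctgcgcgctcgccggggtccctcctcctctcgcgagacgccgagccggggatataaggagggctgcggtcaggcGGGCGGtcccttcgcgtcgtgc
Slc25a5 (chrX:36795347-36795646, plus strand): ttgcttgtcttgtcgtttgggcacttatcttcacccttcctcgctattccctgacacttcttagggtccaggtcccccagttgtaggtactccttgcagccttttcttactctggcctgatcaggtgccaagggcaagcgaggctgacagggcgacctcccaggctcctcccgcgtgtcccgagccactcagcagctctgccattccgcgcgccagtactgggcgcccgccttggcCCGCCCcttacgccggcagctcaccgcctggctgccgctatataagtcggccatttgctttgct
Slc25a22 (chr7:141437825-141438124, minus strand): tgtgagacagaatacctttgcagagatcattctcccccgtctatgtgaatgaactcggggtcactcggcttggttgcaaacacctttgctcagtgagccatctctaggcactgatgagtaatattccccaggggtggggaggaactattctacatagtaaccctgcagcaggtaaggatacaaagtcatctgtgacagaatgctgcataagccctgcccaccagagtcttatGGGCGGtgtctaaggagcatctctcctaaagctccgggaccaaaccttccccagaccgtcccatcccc
Slc25a36 (chr9:97110992-97111291, minus strand): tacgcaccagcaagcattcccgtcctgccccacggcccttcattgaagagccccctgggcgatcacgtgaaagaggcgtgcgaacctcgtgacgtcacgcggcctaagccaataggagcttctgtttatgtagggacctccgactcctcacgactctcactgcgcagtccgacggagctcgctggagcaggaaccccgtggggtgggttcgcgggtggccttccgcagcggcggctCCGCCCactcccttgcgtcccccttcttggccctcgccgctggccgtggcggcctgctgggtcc
Slc25a17 (chr15:81360716-81361015, minus strand): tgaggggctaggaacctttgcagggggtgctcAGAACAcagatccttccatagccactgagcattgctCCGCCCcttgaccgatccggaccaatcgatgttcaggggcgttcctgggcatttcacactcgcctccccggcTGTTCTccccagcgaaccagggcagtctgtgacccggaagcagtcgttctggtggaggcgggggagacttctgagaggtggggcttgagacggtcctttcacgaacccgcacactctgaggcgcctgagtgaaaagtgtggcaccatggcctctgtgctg

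Of the 39 carriers, 29 had a promoter in the RefSeq table, and the start listed first was used where a gene had several, as for Slc25a22, which had 3. GGGCGG or its reverse complement CCGCCC was in 26 of these 29 windows (89.7%), compared with 35.9% of the windows of all 27025 genes in the table. Those genes were not filtered for signal in colon as the carriers were, so the sets compared here are unlike. The median GC content was 61.0% in the carrier windows and 52.67% over all. AGAACA or TGTTCT was in 3 carrier windows (10.3%), those of Slc25a17, Slc25a43 and Slc25a45, compared with 19% of all windows. AAGGTCA or TGACCTT was in 0 of the 29 carrier windows and in 4.66% of all windows. In the printed set, Slc25a4 and Slc25a5 each hold 1 GC box and neither receptor motif, and Slc25a17 holds 2 receptor hexamers and 1 GC box.

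The comparison of DSS with water in Flox mice asks how the carriers respond to colitis where the epithelium has its receptor. In Flox colons, 14 of the 39 carriers fell and 6 rose on DSS, and 19 did not pass an adjusted p of 0.05 in limma. The rises were 3 without Flox DSS replicate 1 and 4 without replicate 2, and the falls 10 without either. Over all 29523 probes tested, 47.2% were called in this comparison, 25.4% lower and 21.8% higher, beside 35.9% and 15.4% of the carriers. These are shares of unlike sets: each carrier is read by its brightest passing probe, while the background holds every passing probe, dim ones included. The gap is therefore not read as a trait of the carriers. The median log2 difference was −0.183 over the carriers and −0.087 over all probes, and both medians were −0.149 with quantile normalization. Among carriers well above background on some array of each group, differences ranged from −1.68 to 1.91. In GR iKO colons 13 carriers fell and 6 rose, with a median of −0.18 against −0.0287 over all probes. The rises there were 2 without GR iKO DSS replicate 3, 3 without replicate 1 or 4, and 4 without Flox DSS replicate 1 or 2, which enter through the shared estimate of the spread. The background there was 38.9% called, 20.0% lower and 18.9% higher, beside 33.3% and 15.4% of the carriers. Scaling to the array's spike-in probes shifts all genes of an array alike. It moved the median of all probes to −2.45 in Flox and −0.98 in GR iKO, and with it 6 of 6 called rises in Flox and 5 of 6 in GR iKO to values below 0. Directions here are therefore relative to the bulk of the RNA on each array. The genotypes share no arrays in these differences, but the fit estimates the spread from all 14 arrays. The calls of both genotypes are therefore not independent. Of the 39 carriers, 10 fell in both genotypes (Slc25a3, Slc25a5, Slc25a13, Slc25a16, Slc25a35, Slc25a36, Slc25a39, Slc25a40, Slc25a42 and Slc25a47), 3 rose in both (Slc25a4, Slc25a22 and Slc25a28), and 0 were called in opposite directions. A further 7 were called in Flox alone and 6 in GR iKO alone, but no carrier passed the test of the difference between genotypes, which is given at the end. The shares of all probes called in both genotypes or in 1 alone were not computed. These counts therefore have no background and are not read as particular to the carriers. Slc25a42, counted in the falls, passed the filter through its water arrays alone. The DSS arrays did not overlap the water arrays for 19 carriers lower and 8 higher in Flox, beside 31.5% and 25.8% of all probes, and for 13 lower and 7 higher in GR iKO, beside 24.0% and 22.4%. Carriers were chosen for full description partly by this lack of overlap, so restating it for them below adds no support. With slide as a block 6 carriers rose and 15 fell in Flox, and 6 rose and 13 fell in GR iKO.

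**Figure D1:**
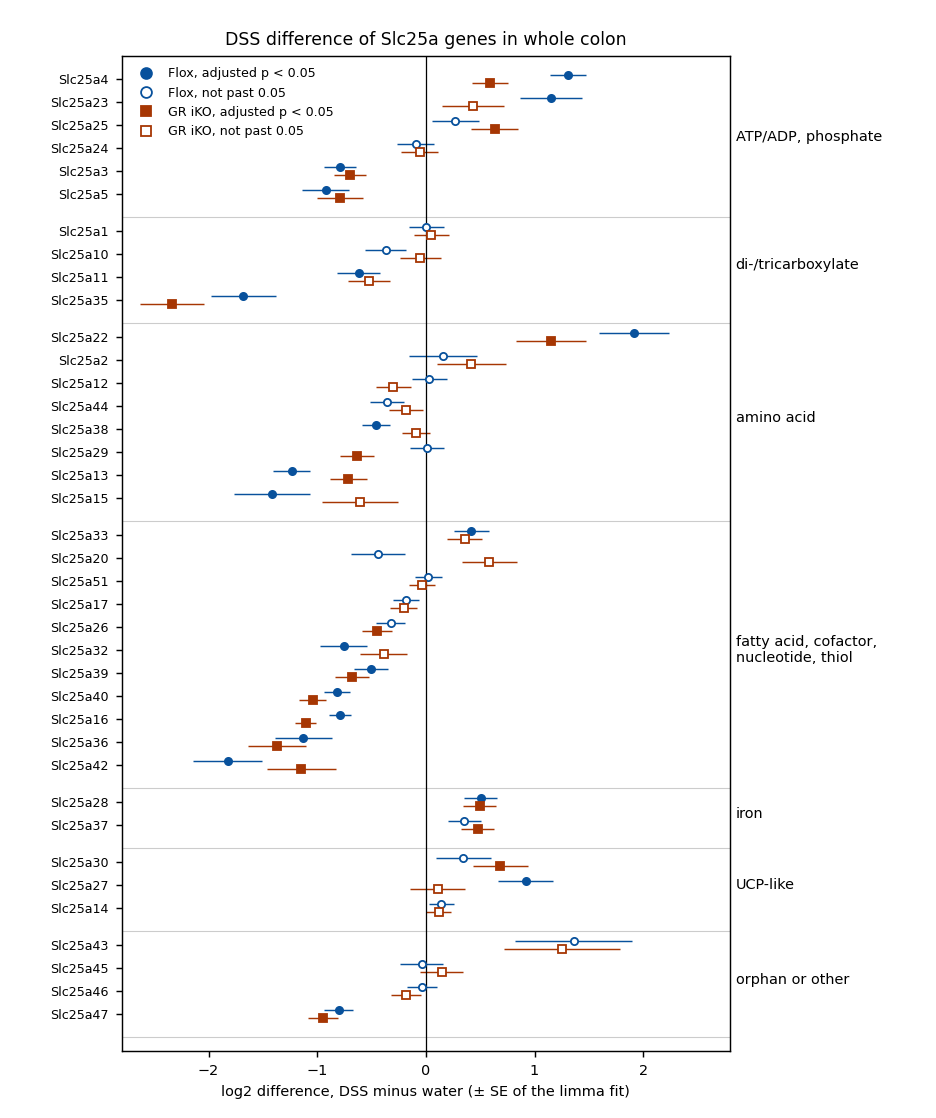
Log2 difference between DSS and water (x axis) for Slc25a genes (y axis, grouped by what they carry), with the standard error of the limma fit as bars. Circles are Flox and squares GR iKO colons, and filled symbols passed an adjusted p of 0.05. Slc25a35 in GR iKO (−2.34) lies farthest to the left and Slc25a22 in Flox (1.91) farthest to the right, and the 10 carriers that fell in both genotypes have both symbols filled on the left. Slc25a42 and Slc25a43 are drawn at measured values although one of their groups was not well above background.

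Among the 6 measured carriers of adenine nucleotides and phosphate, 2 rose and 2 fell in each genotype. Of all probes, 25.4% were called lower and 21.8% higher in Flox, and 20.0% lower and 18.9% higher in GR iKO. Counts by group, here and below, cover few genes each and are not read as traits of a group. The 2 ADP/ATP carriers that passed the filter moved in opposite directions. Slc25a4 encodes ADP/ATP translocase 1, the isoform of heart and muscle. Its log2 levels in Flox were 4.99, 5.02, 4.96 and 4.68 on water and 6.39, 6.20 and 6.07 on DSS. In GR iKO they were 5.0, 4.93, 4.76 and 4.70 on water and 5.22, 5.70 and 5.39 on DSS. The DSS arrays lay above the water arrays in both genotypes, without overlap. The difference was 1.31 ± 0.17 (SE, adjusted p = 7.49e-05) in Flox, which is 2.47-fold higher, and 0.59 ± 0.17 (SE, adjusted p = 0.0147) in GR iKO, which is 1.51-fold higher. A second Slc25a4 probe rose as well, by 1.77 in Flox and 0.88 in GR iKO on the log2 scale. Without GR iKO DSS replicate 3, which had the highest level of its group, the GR iKO difference was 0.46 and was not called (adjusted p = 0.0744).

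Smooth muscle markers rose beside Slc25a4 in Flox and were not called in GR iKO, where Slc25a4 also rose. All 7 were measured, 6 of them rose on DSS in Flox (median log2 difference 1.34), and the mean over the list, relative to the water arrays, was 1.43, 1.16 and 1.81 on the 3 Flox DSS arrays. On the GR iKO DSS arrays that mean was −0.62, 0.61 and 0.23, within or near the range of −0.36 to 0.40 on the water arrays. The list's median difference in GR iKO was 0.14, and limma called 0 of the 7 there, with 1 at an unadjusted p under 0.05 and 1 with equal array weights. The part of muscle RNA in the Slc25a4 difference was not tested.

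Slc25a5 encodes ADP/ATP translocase 2, the isoform of proliferating and epithelial cells. Its levels in Flox were 7.56, 7.41, 7.59 and 7.56 on water and 6.37, 6.19 and 7.26 on DSS. In GR iKO they were 7.43, 7.85, 7.76 and 7.74 on water and 6.84, 6.74 and 7.14 on DSS. Every DSS array was below every water array of its genotype. The gene fell 1.9-fold in Flox, −0.92 ± 0.21 (SE, adjusted p = 0.00382) on the log2 scale, and 1.73-fold in GR iKO, −0.79 ± 0.21 (SE, adjusted p = 0.0118). Flox DSS replicate 4 was nearest to the water arrays, and without GR iKO DSS replicate 3 the GR iKO difference was −0.71 with an adjusted p of 0.0536. Slc25a3, the phosphate carrier that supplies ATP synthase, had levels of 5.58, 5.35, 5.40 and 5.46 on water and 4.66, 4.50 and 4.82 on DSS in Flox. Its GR iKO levels were 5.36, 5.40, 5.52 and 5.72 on water and 4.75, 4.91 and 4.73 on DSS. Again the groups did not overlap, and the differences were −0.79 ± 0.15 (SE, adjusted p = 0.00103) in Flox and −0.70 ± 0.15 (SE, adjusted p = 0.00301) in GR iKO. Cell cycle markers fell beside them in Flox, where all 6 were called with a median of −1.44. In GR iKO limma called 0 of the 6 (2 at an unadjusted p under 0.05, and 1 with equal array weights), and the median was −0.69. The mean over the list, relative to the water arrays, was −0.06, −2.03 and −0.18 on GR iKO DSS replicates 1, 3 and 4, so replicate 3 stood apart. In its group that array was the lowest for Slc25a5 (6.74, beside 6.84 on replicate 1) and the highest for Slc25a3 (4.91). The part of proliferating cells in the Slc25a5 difference was not tested.

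The calcium-regulated ATP-Mg/phosphate carriers set the size of the adenine nucleotide pool in the matrix, and none of the 3 fell by its representing probe. Slc25a25 rose in GR iKO, with levels of 1.64, 1.38, 1.29 and 1.19 on water and 2.18, 1.94 and 1.91 on DSS. Its Flox levels were 1.53, 1.71, 1.35 and 1.11 on water and 1.77, 1.51 and 1.82 on DSS. These Flox groups overlapped and the GR iKO groups did not, and the differences were 0.63 ± 0.21 (SE, adjusted p = 0.0337) in GR iKO and 0.27 ± 0.21 (SE, adjusted p = 0.32) in Flox. The other 2 Slc25a25 probes were not called in GR iKO, at 0.53 (adjusted p = 0.0623) and 0.02 (adjusted p = 0.951), nor was the mean of all its probes, at 0.39 (adjusted p = 0.132). The call held under 16 of 25 alternatives and was lost without any one of the GR iKO DSS arrays (0.55 to 0.68, adjusted p of 0.0604 to 0.11), and also without GR iKO control replicate 3 or 4 or Flox DSS replicate 1 or 2 (0.57 to 0.63). Slc25a23 rose in Flox, 1.15 ± 0.29 (SE, adjusted p = 0.00571), and was 0.43 ± 0.29 (SE, adjusted p = 0.255) in GR iKO. Slc25a24 had levels of 4.25, 4.10, 4.38 and 4.00 on Flox water and 4.00, 4.03 and 4.23 on Flox DSS arrays. Its levels in GR iKO were 4.33, 4.08, 4.26 and 4.17 on water and 4.09, 3.87 and 4.50 on DSS. The groups overlapped in both genotypes, with differences of −0.09 ± 0.17 (SE, adjusted p = 0.676) and −0.06 ± 0.17 (SE, adjusted p = 0.824). A dimmer Slc25a24 probe read otherwise and fell by 1.21 in Flox (adjusted p = 1.46e-05) and by 0.42 in GR iKO (adjusted p = 0.0162), so the result for this gene depends on the probe.

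**Figure D2:**
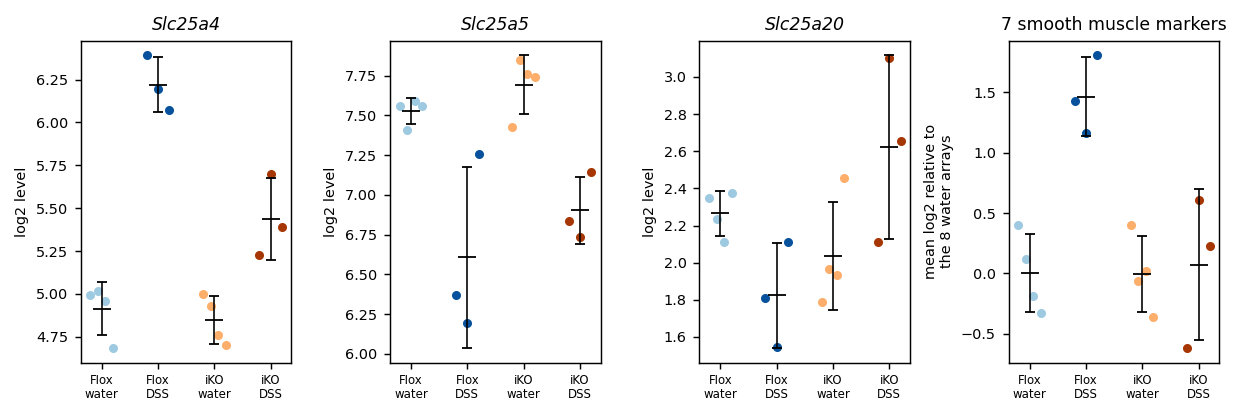
Levels on each array (points), group means and SD (black) for Slc25a4, Slc25a5 and Slc25a20, as log2 relative to the array's 75th percentile, and for the mean of 7 smooth muscle markers relative to the 8 water arrays. Slc25a4 is above and Slc25a5 below the water arrays on all 6 DSS arrays, while the muscle markers are raised on the 3 Flox DSS arrays, at 1.16 to 1.81.

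Among the 4 measured di- and tricarboxylate carriers, 2 fell in Flox and 1 in GR iKO. Slc25a35, a carrier whose substrate is not settled, had the largest mean change of the family over both genotypes. Levels of this gene in Flox were 0.11, 0.14, −0.10 and −0.04 on water and −2.17, −1.98 and −0.81 on DSS. Those in GR iKO were 0.09, 0.20, 0.13 and 0.31 on water and −3.00, −1.62 and −1.84 on DSS. The groups were far apart in both genotypes, though Flox DSS replicate 4 was less changed than the other two. Slc25a35 fell 3.2-fold in Flox, −1.68 ± 0.30 (SE, adjusted p = 0.000667), and 5.06-fold in GR iKO, −2.34 ± 0.30 (SE, adjusted p = 0.000116). Slc25a11, the oxoglutarate/malate carrier of the shuttle, fell in Flox, −0.62 ± 0.20 (SE, adjusted p = 0.0204), and in GR iKO was just short of the threshold, −0.52 ± 0.20 (SE, adjusted p = 0.0506). The Flox call was lost without Flox DSS replicate 1 (−0.49, adjusted p = 0.146) or 2 (−0.60, adjusted p = 0.087). Slc25a1 exports citrate for fatty acid synthesis in the cytosol. Its levels were 1.83, 1.74, 1.54 and 1.52 on Flox water and 1.78, 1.58 and 1.63 on Flox DSS arrays. The levels in GR iKO were 1.75, 1.62, 1.83 and 1.83 on water and 1.93, 1.43 and 2.06 on DSS. All 4 groups overlapped, and the DSS differences were 0.0048 ± 0.16 (SE, adjusted p = 0.984) in Flox and 0.05 ± 0.16 (SE, adjusted p = 0.835) in GR iKO. The enzymes that use the exported citrate read otherwise: Acly, which splits it, fell in both genotypes (−0.79 and −1.18), as did Fasn (−0.97 and −1.26), the fatty acid synthase. Slc25a10, the dicarboxylate carrier, was not called, at −0.37 and −0.05.

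Of the 8 measured amino acid carriers, 3 fell and 1 rose in Flox, and 2 fell and 1 rose in GR iKO. Slc25a22, a carrier of glutamate with protons, had the largest rise of the family in Flox. Its levels there were −1.32, −0.97, −1.24 and −1.16 on water and 0.38, −0.10 and 1.95 on DSS. In GR iKO they were −1.10, −1.25, −1.42 and −1.23 on water and −0.47, 0.01 and 0.16 on DSS. Every DSS array was above the water arrays, and Flox DSS replicate 4 was far above the other 2 of its group, which made the SD of this group, 1.07, the widest among the carriers in Flox DSS. The difference was 1.91 ± 0.32 (SE, adjusted p = 0.000498) in Flox, 3.77-fold higher, and 1.15 ± 0.32 (SE, adjusted p = 0.014) in GR iKO, 2.22-fold higher. The SE is the same in both because the fit shares the spread over all groups. The GR iKO call was lost without GR iKO DSS replicate 3 (1.10, adjusted p = 0.055) or 4 (1.02, adjusted p = 0.0729).

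The aspartate/glutamate carriers Slc25a12 (aralar) and Slc25a13 (citrin) bring glutamate into the matrix and send aspartate out. Slc25a13, the form of liver and epithelia, had levels of 0.96, 0.89, 0.90 and 0.87 on Flox water and −0.29, −0.63 and −0.08 on Flox DSS arrays. In GR iKO the values were 1.00, 0.95, 1.05 and 1.05 on water and 0.62, −0.25 and 0.52 on DSS. Water arrays were tight in both genotypes and all DSS arrays were lower, GR iKO DSS replicate 3 by the most in its group. The gene fell in both, with log2 differences of −1.24 ± 0.17 (SE, adjusted p = 0.000125) in Flox and −0.71 ± 0.17 (SE, adjusted p = 0.00585) in GR iKO. Slc25a12, the form of muscle and brain, had levels of 2.46, 2.17, 2.08 and 2.26 on Flox water and 2.32, 2.33 and 2.17 on Flox DSS arrays. Its GR iKO levels were 2.04, 2.27, 1.94 and 2.23 on water and 1.98, 1.75 and 1.74 on DSS. Water and DSS arrays overlapped in both genotypes, and neither difference was called, at 0.03 ± 0.16 (SE, adjusted p = 0.885) in Flox and −0.30 ± 0.16 (SE, adjusted p = 0.163) in GR iKO.

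The carriers of ornithine and of basic amino acids differed in which genotype was called. Slc25a15, the ornithine carrier of the urea cycle, fell in Flox, −1.42 ± 0.35 (SE, adjusted p = 0.0056), and was −0.60 ± 0.35 (SE, adjusted p = 0.195) in GR iKO, where replicate 3 was at −6.03 and not well above background while replicate 4 was at −3.89. Its Flox DSS values were well above background on 1 of 3 arrays, the Flox direction turned with another background correction, to 0.15, and the call was lost without Flox DSS replicate 1 (−1.21, adjusted p = 0.0516). Its partner enzyme Otc, ornithine transcarbamylase, fell by 3.04 in Flox and 4.68 in GR iKO, where the DSS arrays had an SD of 2.67 and 2 of 3 were well above background, while Arg1, the arginase that makes ornithine, rose by 2.98 and 3.34. Slc25a29, a carrier of basic amino acids, fell in GR iKO, −0.63 ± 0.16 (SE, adjusted p = 0.00722), and was at 0.0074 ± 0.16 (SE, adjusted p = 0.974) in Flox. Both of its probes fell in GR iKO. Slc25a38, which brings in glycine for haem synthesis, fell in Flox, −0.46 ± 0.13 (SE, adjusted p = 0.0112), and was at −0.09 in GR iKO. Its call was lost without Flox DSS replicate 2 (−0.39, adjusted p = 0.0882). Slc25a2 and Slc25a44, a carrier of branched-chain amino acids, were called in neither genotype.

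Among the 12 carriers of fatty acids, cofactors, nucleotides and thiols, 6 fell and 1 rose in Flox, and 7 fell in GR iKO. Over all probes 25.4% fell and 21.8% rose in Flox, and 20.0% fell and 18.9% rose in GR iKO. That set includes dim probes, so these counts are not read as a trait of this group. Slc25a16, a carrier tied to coenzyme A, had the lowest adjusted p of the family. Its levels were −1.28, −1.22, −1.27 and −1.25 on Flox water and −2.09, −2.10 and −1.94 on Flox DSS arrays. The GR iKO arrays had −0.94, −0.89, −1.01 and −0.95 on water and −1.98, −2.03 and −2.16 on DSS. The spread within every group was small beside the fall, which was −0.79 ± 0.10 (SE, adjusted p = 6.41e-05) in Flox and −1.11 ± 0.10 (SE, adjusted p = 1.27e-05) in GR iKO. Slc25a42, which imports coenzyme A, was dim. On water its levels were −4.73, −5.29, −5.19 and −4.51 in Flox, 1 of them not well above background, and −4.90, −5.42, −4.96 and −4.73 in GR iKO, again with 1 such array. On DSS it was not well above background on any of the 6 arrays, with measured values of −7.12, −6.48 and −6.67 in Flox and −6.58, −5.92 and −5.94 in GR iKO. Slc25a42 thus passed the filter through its water arrays alone, which favoured a fall, so its adjusted p in limma (0.000616 and 0.0133) are no support for one. With the processed signal it was at least 1.37-fold lower in Flox and at least 1.80-fold lower in GR iKO. Its direction turned with another background correction, to 0.39 and 0.13, so the fall depends on that correction. Without GR iKO DSS replicate 1 the GR iKO call was lost (−0.93, adjusted p = 0.0655). Pank1, the kinase that starts coenzyme A synthesis, fell by 2.07 in Flox and 1.96 in GR iKO.

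Slc25a36 and Slc25a33 carry pyrimidine nucleotides. Slc25a36 had levels of −1.74, −1.73, −1.71 and −1.30 on Flox water and −2.83, −2.77 and −2.64 on Flox DSS arrays. Its GR iKO levels were −2.12, −1.67, −1.47 and −1.45 on water and −3.12, −2.58 and −3.45 on DSS. All DSS arrays were below the water arrays, with differences of −1.13 ± 0.27 (SE, adjusted p = 0.00414) in Flox and −1.37 ± 0.27 (SE, adjusted p = 0.00172) in GR iKO, and the Flox call was lost with another background correction (−0.62, adjusted p = 0.0537). Slc25a33 rose in Flox, 0.42 ± 0.16 (SE, adjusted p = 0.049), close to the threshold, and was 0.36 ± 0.16 (SE, adjusted p = 0.0982) in GR iKO. That call held under 8 of 25 alternatives and was lost without any one of the Flox or the GR iKO water arrays or the Flox DSS arrays (0.37 to 0.49, adjusted p of 0.0578 to 0.178). The second Slc25a33 probe was at 0.06 in Flox (adjusted p = 0.785). The glutathione carriers Slc25a39 and Slc25a40 both fell. Slc25a40 had levels of −0.45, −0.49, −0.51 and −0.27 on Flox water and −1.42, −1.20 and −1.12 on Flox DSS arrays, and −0.16, −0.23, −0.15 and −0.28 and −1.17, −1.33 and −1.24 on the GR iKO water and DSS arrays. Slc25a39 had levels of 4.64, 4.53, 4.70 and 4.59 on Flox water and 3.98, 3.94 and 4.42 on Flox DSS arrays, and 4.66, 4.47, 4.70 and 4.77 and 3.85, 3.76 and 4.29 on the GR iKO water and DSS arrays. The groups of neither gene overlapped, with DSS differences for Slc25a40 of −0.82 ± 0.12 (SE, adjusted p = 0.000218) and −1.04 ± 0.12 (SE, adjusted p = 6.92e-05). Those for Slc25a39 were −0.50 ± 0.16 (SE, adjusted p = 0.0197) and −0.68 ± 0.16 (SE, adjusted p = 0.00481), and the Flox call was lost without Flox DSS replicate 1 (−0.44, adjusted p = 0.121) or 2 (−0.41, adjusted p = 0.128). Of the enzymes that make glutathione, Gclc rose in GR iKO (0.77) and was at 0.08 in Flox, and Gclm fell in Flox (−0.67) and was at −0.34 in GR iKO.

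Slc25a20, the carnitine/acylcarnitine carrier through which long-chain fatty acids enter the matrix, had the interaction estimate farthest from 0 among the carriers. Its levels in Flox were 2.35, 2.23, 2.11 and 2.38 on water and 1.81, 1.55 and 2.11 on DSS. In GR iKO they were 1.79, 1.96, 1.93 and 2.46 on water and 2.11, 3.10 and 2.65 on DSS. Within each of the 3 slides with both groups, DSS was lower in Flox and higher in GR iKO, but neither difference was called, at −0.44 ± 0.25 (SE, adjusted p = 0.167) and 0.59 ± 0.25 (SE, adjusted p = 0.0841). Slc25a32, the folate carrier, fell in Flox, −0.76 ± 0.22 (SE, adjusted p = 0.0127), a call lost without Flox DSS replicate 1 (−0.67, adjusted p = 0.0843) or 2 (−0.68, adjusted p = 0.0766). Slc25a26, which imports S-adenosylmethionine, fell in GR iKO, −0.45 ± 0.13 (SE, adjusted p = 0.019), and its second probe fell in both genotypes (−0.76 and −0.44). The GR iKO call of the Slc25a26 representing probe was lost without GR iKO DSS replicate 3 (−0.39, adjusted p = 0.0689) or 4 (−0.44, adjusted p = 0.0733). Slc25a51, the NAD+ carrier, had differences of 0.02 and −0.04, and Slc25a17, a peroxisomal carrier of coenzyme A and the one whose promoter window holds the receptor hexamer 2 times, of −0.18 and −0.20; neither was called by its representing probe. Another Slc25a17 probe fell in both genotypes, by 0.50 (adjusted p = 0.0262) and 0.52 (adjusted p = 0.0252), the third did not, and the mean of all 3 was called in both, at −0.30 (adjusted p = 0.0465) and −0.33 (adjusted p = 0.0366).

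Of the 2 mitoferrins, which bring iron into the matrix for haem and iron-sulfur clusters, 1 rose in Flox and both rose in GR iKO. Slc25a28 (mitoferrin 2) rose in both genotypes, 0.50 ± 0.15 (SE, adjusted p = 0.0155) and 0.49 ± 0.15 (SE, adjusted p = 0.0205), with levels of 1.74 to 2.13 on water and 2.31 to 2.53 on DSS arrays. Its Flox call was lost without Flox DSS replicate 1 (0.47, adjusted p = 0.0966) or 4 (0.47, adjusted p = 0.0515). The GR iKO call was lost without GR iKO DSS replicate 1 (0.46, adjusted p = 0.0642) or 4 (0.47, adjusted p = 0.0819). Slc25a37 (mitoferrin 1, the form of red cell precursors) had levels of 1.39, 1.10, 1.40 and 1.23 on Flox water and 1.64, 1.64 and 1.62 on Flox DSS arrays. In GR iKO its levels were 1.33, 1.14, 1.38 and 1.19 on water and 2.01, 1.49 and 1.71 on DSS. The groups did not overlap in either genotype, yet only the GR iKO rise was called, 0.48 ± 0.15 (SE, adjusted p = 0.0257), against 0.35 ± 0.15 (SE, adjusted p = 0.0751) in Flox. That call was lost without GR iKO DSS replicate 1 (0.34, adjusted p = 0.129) or 4 (0.49, adjusted p = 0.0753). A dimmer Slc25a37 probe was at −0.35 in Flox and 0.63 in GR iKO, called in neither. Beside them, the 4 measured red blood cell markers of 6 had medians of 1.14 and 0.91, and neutrophil markers, 6 of 6 measured, had medians of 4.35 (5 called) and 7.11 (6 called). Limma called 0 of the red cell markers in either genotype, also at an unadjusted p under 0.05 and with equal array weights. The part of these cells in the mitoferrin differences was not tested.

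The remaining carriers were mostly not called. Of the carriers that resemble the uncoupling proteins, Slc25a27 rose in Flox, 0.92 ± 0.25 (SE, adjusted p = 0.0101), Slc25a30 rose in GR iKO, 0.68 ± 0.25 (SE, adjusted p = 0.0483), just past the threshold, and Slc25a14 was at 0.14 and 0.12. The Slc25a27 call was lost without Flox DSS replicate 1 (0.86, adjusted p = 0.0694) or 2 (0.83, adjusted p = 0.0702) and with the mean of its 3 probes (0.93, adjusted p = 0.0572), the other 2 of which were not called, at 0.49 and 1.37. The Slc25a30 call held under 5 of 25 alternatives and was lost without any one of 12 arrays, with values of 0.52 to 0.70. Slc25a47, a carrier known from liver, fell in both genotypes. Its levels were −1.32, −1.22, −1.27 and −1.43 on Flox water and −2.15, −2.23 and −1.96 on Flox DSS arrays. The GR iKO arrays had −1.24, −1.30, −1.23 and −1.15 on water and −1.89, −2.46 and −2.18 on DSS. No DSS array reached the water range, and the differences were −0.80 ± 0.13 (SE, adjusted p = 0.000481) and −0.95 ± 0.13 (SE, adjusted p = 0.000249). Slc25a43, with no settled substrate, was not well above background on any of the 8 water arrays and was so on 4 of the 6 DSS arrays. It thus passed the filter through DSS arrays alone, which favoured a rise. With the processed signal it was at least 1.73-fold higher in Flox and 1.83-fold higher in GR iKO, without passing the test (adjusted p = 0.0545 and 0.0845). Slc25a46, which acts on the outer membrane, and Slc25a45 were called in neither genotype by the representing probe, although another Slc25a46 probe fell in Flox (−0.69, adjusted p = 0.00548). Relatives that carry other symbols fell too: Mtch2 by 0.91 and 1.00, Ucp2 by 1.04 and 0.68, and Mtch1 in GR iKO alone by 0.38, while Ucp1 and Ucp3 did not pass the filter.

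**Figure D3:**
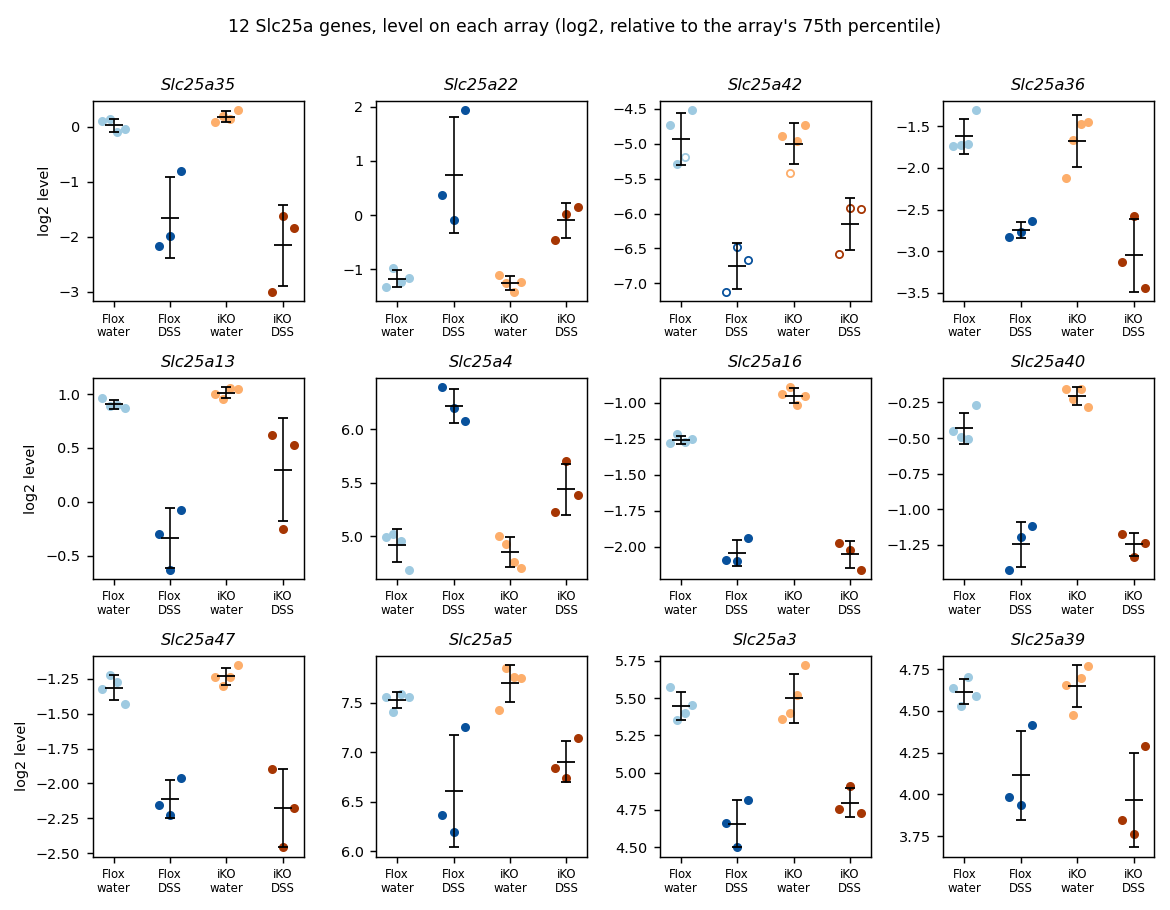
Level of 12 Slc25a genes on each array (points, y axis in log2 relative to the array's 75th percentile) with group means and SD in black. They are the 12 largest mean changes among the carriers that rose in both or fell in both genotypes without overlap of the arrays, and open points were not well above background. Slc25a42 passed the filter through its water arrays alone. In 10 panels the DSS arrays lie below the water arrays, and in the panels of Slc25a4 and Slc25a22 above them. The separation in every panel follows from how the genes were chosen.

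The carriers were set beside the rest of mitochondrial metabolism, using lists of genes that work on either side of the inner membrane. Of 24 measured genes of the TCA cycle and malate-aspartate shuttle, 14 fell in Flox and 17 in GR iKO, with medians of −0.60 in both. Idh3a, a subunit of the NAD-dependent isocitrate dehydrogenase, fell by 1.80 and 1.65, and Suclg2, a subunit of succinyl-CoA ligase, by 1.34 and 1.26. Of 27 genes of the respiratory chain and ATP synthase, 14 fell in Flox and 17 in GR iKO (medians −0.47 and −0.55), Cyc1 of complex III by 1.22 and 1.09. No gene of these 2 lists rose. The import and channel list had 8 of 13 lower in Flox and 5 in GR iKO, among them Mpc1 (−0.58 and −0.82) and Mpc2 (−0.84 and −0.97), the subunits of the pyruvate carrier, which belongs to another family. Fatty acid oxidation had 8 of 17 lower and 2 higher in Flox, and 6 lower and 1 higher in GR iKO, where Acadl, the long-chain acyl-CoA dehydrogenase, rose (0.67 and 1.24) while Acads, the short-chain enzyme, fell (−1.14 and −1.07).

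Regulators of mitochondrial gene expression fell in part. Of 10 measured, 4 fell in Flox and 6 in GR iKO. Ppargc1a, the coactivator of mitochondrial biogenesis, fell by 2.53 and 3.24 on the log2 scale, Ppargc1b by 0.78 and 0.92, and Tfam, which maintains mitochondrial DNA, by 0.98 and 0.84, whereas Esrra was at −0.01 and 0.12. Partner enzymes of the carried substrates were mixed, with 9 of 23 lower and 1 higher in Flox and 9 lower and 5 higher in GR iKO. In GR iKO the higher partners included Arg2 (2.11), Alas1 of haem synthesis (0.97) and Nampt of NAD synthesis (1.08). The differences of these lists are descriptions beside the background shares given above, and the Slc25a members had a smaller median fall than the TCA cycle and respiratory chain lists. General epithelial markers had medians of −0.44 in Flox (3 of 7 lower) and 0.09 in GR iKO, where limma called 0 of 7, also at an unadjusted p under 0.05. Of 6 measured colonocyte markers, 1 rose and 1 fell in Flox (median −0.711), and 1 rose and 2 fell in GR iKO (median −0.451). Of 7 goblet cell markers, 3 fell in Flox (median −0.945). In GR iKO limma called 0 of these 7 (median −0.678), with 1 at an unadjusted p under 0.05. Crypt stem cell markers were lower in both, 3 of 4 called with medians of −2.20 and −2.06, and the part of these cells in the falls was not tested.

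**Figure D4:**
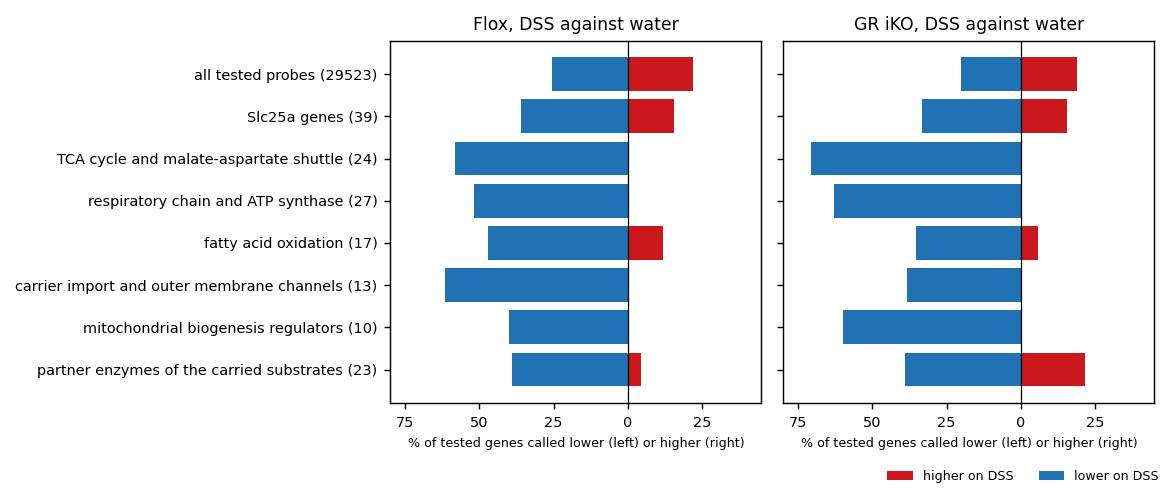
Share of the tested genes of each list (number in brackets) called lower (left, blue) or higher (right, red) on DSS at an adjusted p of 0.05, in Flox and in GR iKO colons, with all 29523 probes in the top row. The carriers are 35.9% lower and 15.4% higher in Flox, and the TCA cycle and respiratory chain lists show blue bars only.

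The comparison of the genotypes on water asks whether loss of the epithelial receptor changes the carriers in the resting colon. Limma called 0 of the 39 carriers, with a background of 7 of 29523 probes (0.0237%, with 0.0169% higher and 0.00677% lower). At an unadjusted p under 0.05 were 2 of the 39 carriers, beside 986 of 29523 probes. The log2 differences, GR iKO minus Flox, ranged from −0.33 to 0.31. Slc25a16 was higher in GR iKO by 0.31 ± 0.06 (SE, unadjusted p = 0.000214, adjusted p = 0.568), with the arrays of the genotypes not overlapping. It was 1 of 39 carriers with that separation, beside 1.28% of all probes separated in this direction. Slc25a40 differed by 0.22 ± 0.07 (unadjusted p = 0.0095, adjusted p = 1.0). With equal array weights 0 carriers were called as well.

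On DSS the question is whether the inflamed colon lacking the epithelial receptor differs in its carriers. Limma again called 0 of 39, beside 6 of 29523 probes (0.0203%, with 0.0169% higher and 0.00339% lower). At an unadjusted p under 0.05 were 6 of the 39 carriers, beside 5225 of 29523 probes. Slc25a4 was lower in GR iKO than in Flox, −0.78 ± 0.21 (SE, adjusted p = 0.105), and had the lowest adjusted p of the 39. It was lower in both slides that held the pair of DSS groups, by 0.69 and 0.68. Over all 6 DSS arrays the smooth muscle list had a median of −1.37. Limma called 0 of its 7 markers there, with 7 at an unadjusted p under 0.05 and 7 called with equal array weights. The other 5 of the 6 carriers were Slc25a13, 0.63 ± 0.22 (SE, adjusted p = 0.167), Slc25a20, 0.80 ± 0.32 (SE, adjusted p = 0.225), Slc25a29, −0.55 ± 0.20 (SE, adjusted p = 0.187), Slc25a27, −0.74 ± 0.32 (SE, adjusted p = 0.257), and Slc25a12, −0.45 ± 0.21 (SE, adjusted p = 0.28). Of the 39, 5 had GR iKO DSS arrays entirely below and 1 entirely above the Flox DSS arrays, beside 11.9% and 10.9% of all probes. With equal weights for water and DSS arrays 4 carriers were called, Slc25a4 (adjusted p = 0.0107), Slc25a29 (0.0282), Slc25a12 (0.0437) and Slc25a20 (0.0483), so these calls depend on assuming the same spread on DSS and water arrays. Without GR iKO DSS replicate 3, Slc25a13 was called (0.90, adjusted p = 0.0336).

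The difference of the DSS changes between genotypes was tested by the interaction term. It was called for 0 of the 39 carriers and for 0.0% of all probes by limma, with 5 carriers and 4365 of 29523 probes at an unadjusted p under 0.05, and for 0 carriers with equal weights. The estimates ranged from −0.81 for Slc25a27 to 1.03 for Slc25a20. Slc25a20 had 1.03 ± 0.35 (SE, adjusted p = 0.221), with Flox lower and GR iKO higher on DSS. Slc25a4 had −0.72 ± 0.24 (SE, adjusted p = 0.205) and Slc25a29 −0.64 ± 0.22 (SE, adjusted p = 0.221). The carriers called in one genotype alone therefore were not shown to differ between genotypes. The mitochondrial gene lists gave 0 calls among 117 entries in each of the 3 genotype comparisons, and 4 called on DSS with equal weights. At an unadjusted p under 0.05 were 0 entries on water, 8 on DSS and 7 in the interaction. The same counts over all 29523 probes were 986, 5225 and 4365.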

How the data were processed

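Total RNA from whole mouse colon was hybridised to 14 Agilent 1-colour arrays, and the deposited files are the authors' scanner output from Feature Extraction 12.0.0.7, with background-subtracted and processed signal intensity per spot. Partek 6.6 is named in the submitters' processing notes. The deposited table of log2 values per probe by the authors was used as an alternative (correlation with the values used here at least 0.9988). Control spots (1639 of 45018) were left out, spots of a probe were averaged, and log2 intensity minus each array's 75th percentile was computed. Of 41174 probes, 29523 scored well above background on at least 3 arrays were tested, 97 of them with a missing value on some array, which the fit leaves out. No probe was saturated. RefSeq accessions (29245 probes) were matched to symbols through the RefSeq gene table of GRCm38.p6, and 28215 matched. The array's own annotation build, mm9, was not used for coordinates.

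Groups were compared with limma 3.58.1 in R 4.3.3 (all 14 arrays, weights estimated for water, 1.695, and DSS, 0.495, arrays, two-sided, Benjamini-Hochberg over all tested probes, called under 0.05). Each SE comes from this fit, which estimates the spread of a probe from all groups together. It is therefore not the spread of the compared arrays alone, and it is the same for both genotypes. The study's own array test was not used here. Where a probe was not well above background on any array of a group, a lower bound of the fold was computed from the lowest signal well above background. The scan held no mean signal column, so the normexp alternative used the median signal and median background. Members and gene lists were chosen with earlier results of these data known. Fully described were the 12 carriers with the largest mean change among those that rose in both or fell in both genotypes without overlap, plus 10 carriers named for their function (Slc25a1, Slc25a3, Slc25a4, Slc25a5, Slc25a12, Slc25a13, Slc25a20, Slc25a24, Slc25a25 and Slc25a37), and second probes that disagreed. Some values are not reported here. The number of arrays limits the precision. The labels name separate samples, and p-values measure only the spread between them.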

Additional observations from a re-analysis of the deposited data

Results flagged for a closer look

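Among 78 groups of 4 water arrays checked (39 carriers in each genotype), 2 held an array far from the other 3, and chance alone gives about 1 in 20. Slc25a36 on Flox control replicate 4 had a log2 level of −1.30, while the other 3 Flox control arrays lay between −1.74 and −1.71. Slc25a5 on Flox control replicate 2 had a level of 7.41, below the 7.56 to 7.59 of the others. All of these spots were well above background.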

How the results depend on the processing

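Of 25 alternatives, 14 left out an array each. Scaling to 8 spike-in probes changed the counts most: 0 carriers were higher and 37 lower in Flox, 0 higher and 22 lower in GR iKO, and 12 were called in the interaction, as the median of all probes moved to −2.45, −0.98 and 1.43. Under this scaling the Flox differences turned to −2.36 for Slc25a1, −2.21 for Slc25a2, −1.06 for Slc25a4, −2.33 for Slc25a12, −2.22 for Slc25a14, −0.45 for Slc25a22, −1.21 for Slc25a23, −2.09 for Slc25a25, −1.44 for Slc25a27, −1.86 for Slc25a28, −2.35 for Slc25a29, −2.02 for Slc25a30, −1.94 for Slc25a33, −2.01 for Slc25a37 and −2.34 for Slc25a51, and the GR iKO differences to −0.36 for Slc25a4, −0.32 for Slc25a25, −0.46 for Slc25a28, −0.27 for Slc25a30 and −0.47 for Slc25a37. Relative to the median of all probes under this scaling, 20 of 20 called carriers in Flox and 19 of 19 in GR iKO kept their sign. With normexp background correction Slc25a15 in Flox turned to 0.15, and Slc25a42 to 0.39 in Flox and 0.13 in GR iKO. With equal array weights 4 carriers were called between genotypes on DSS. Spike-in scaling shifts all genes of an array alike. Why that shift differs between arrays, and the cause of the other changes, were not tested. Leaving out an array gave 3 to 7 carriers higher and 10 to 15 lower in Flox, 2 to 6 higher and 10 to 14 lower in GR iKO, 0 to 1 called between genotypes on DSS, and 0 to 0 on water and in the interaction. The fewest Flox calls came without Flox DSS replicate 1 or 2, and the fewest GR iKO calls without GR iKO DSS replicate 3. Nr3c1 on water was −0.80 and no longer called with equal weights, with only the compared arrays, or with slide as a block, −0.98 with spike-in scaling and −0.90 with the mean of all its probes; leaving out an array gave −0.86 to −0.74 on water and −0.94 to −0.74 on DSS, where equal weights (−0.84) added a call. Replicate numbers and slides were not taken as blocks in the main fit, although arrays that shared them deviated together somewhat more than others. For same-numbered arrays the correlations lay between −0.23 and 0.31 (median 0.099, 9 of 18 over 0.1). Arrays of different number had a median of −0.02, with 11 of 55 over 0.1. The median was 0.094 for arrays of the same slide and −0.029 for different slides. With the replicate block 6 carriers were higher and 14 lower in Flox, 5 higher and 14 lower in GR iKO, 0 in the other comparisons, and Nr3c1 on water was −0.80 and not called.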
